A study of Acipenser schrenckii with 5 samples.

Results

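The miRNAs described here are miR-10 and miR-196, measured by 19 probes of a microarray hybridized with RNA of the Amur sturgeon, Acipenser schrenckii. The array holds 615 probes of the maker's standard set and 48 custom probes, and the 19 are 2.87% of these. All probes were taken whose name, after a 3-letter prefix for the species of the miRNA sequence, is miR-10 or miR-196 with no further digit, so that all letters, arms and species are included. Of the 19 probes, 11 are miR-10 (8 of the 5p arm and 3 of the 3p arm) and 8 are miR-196. The prefixes stand for zebrafish (dre), common carp (ccr), fugu (fru), channel catfish (ipu), medaka (ola), Atlantic halibut (hhi) and olive flounder (pol), and none of the 19 is a custom probe.

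Total RNA was taken from 1 fish, 5 months old, and RNA of its brain, heart, liver, muscle and spleen was labeled with Cy3 and hybridized on 1 array per tissue, with 5 spots for every probe. The SD given after each value is the spread over these 5 spots, which is technical. With 1 fish and 1 array per tissue, no difference between fish can be seen and no p-value was computed. In tissue RNA, fewer cells of a type and less of a miRNA per cell cannot be told apart.

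MiR-10 and miR-196 genes lie between the protein-coding genes of the Hox clusters, which give cells of the embryo their position along the axis from head to tail. The Hox clusters are active in the hindbrain, spinal cord and trunk and silent in the forebrain. Brain is therefore the tissue with which the trunk tissues were compared. No part of the brain is named for its sample, so hindbrain may be included. Both miRNAs repress Hox messages, miR-10 in zebrafish and miR-196 in mouse. A mature miRNA finds its messages mainly through its seed, the short stretch after its first base.

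The target sequences of the 8 miR-10 5p probes, which carry the differences between tissues described below, are shown 5′ to 3′ as the files give them, with the seed (bases 2 to 8) in capitals.
dre-miR-10a-5p: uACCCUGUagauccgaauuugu
ccr-miR-10b: uACCCUGUagaaccgaauuugu
dre-miR-10b: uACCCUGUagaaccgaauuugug
dre-miR-10c: uACCCUGUagauccggauuugu
ccr-miR-10c: uACCCUGUagauccggauuugug
ccr-miR-10d: uACCCUGUagaaccgaaugugu
dre-miR-10d-5p: uACCCUGUagaaccgaaugugug
fru-miR-10d: uACCCUGUagaaccgaaugugugug
All 8 share the seed ACCCUGU, which no other probe on the array carries. Counted from the 5′ end, miR-10b differs from dre-miR-10a-5p by U12A, miR-10c by A16G, and miR-10d by U12A and U19G. Within a letter the probes differ only in how far they reach at the 3′ end. The 8 probes are thus near copies and not independent measurements, and RNA of one letter may hybridize to the probe of another.

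The 8 miR-196 targets share the seed AGGUAGU, again found in no other probe, and the 5 shown here are the reference and the base changes among them.
dre-miR-196a: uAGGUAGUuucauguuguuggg
dre-miR-196b: uAGGUAGUuucaaguuguuggg
dre-miR-196c: uAGGUAGUuugauguuguuggg
dre-miR-196d: uAGGUAGUuuuauguuguuggg
hhi-miR-196: uAGGUAGUcucauguuguuggg
Against dre-miR-196a, dre-miR-196b has U13A, dre-miR-196c has C11G, miR-196d of zebrafish and catfish has C11U, and hhi-miR-196 has U9C. The 3 miR-10 probes of the 3p arm, the opposite strand of the hairpin, have a seed each.
dre-miR-10a-3p: cAAAUUCGugucuuggggaaua
pol-miR-10b-3p: aGAUUCGAuucuaggggaguau
dre-miR-10d-3p: cAGAUUCGguuuuaggggagua

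By most of its 5p probes, miR-10 was high in muscle, intermediate in spleen, and low in brain and heart. For fru-miR-10d brain came nearer to spleen, and ccr-miR-10d was detected in muscle alone. No miR-10 probe was detected in liver by the rule of 3 SD given below. Signal, the intensity after background correction and normalization between the arrays, was highest in muscle and second highest in spleen for all 8 miR-10 5p probes, an order that 3.32% of all probes had. For all 8 the lowest of the 5 muscle spots lay above the highest brain spot (27.8% of all probes) and above the highest heart spot (33.2%). For 7 of the 8, all but dre-miR-10c, the lowest spleen spot also lay above the highest brain spot (26.1% of all probes).

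The labels were checked with miRNAs known from particular tissues or blood cells. All 14 detected probes of the brain miRNAs miR-9, miR-124 and miR-219 were highest in brain, the 4 of the liver miRNA miR-122 in liver, the 19 of the muscle miRNAs miR-1, miR-133 and miR-206 in muscle, and the 3 of the heart miRNA miR-499 in heart. Muscle and heart shared these miRNAs: 17 of the 19 muscle probes were also detected in heart, and all 3 miR-499 probes in muscle. The red cell miRNAs miR-144 and miR-451 were highest in spleen with all 6 probes. Of the 12 detected probes of the white cell miRNAs miR-142, miR-150 and miR-223, 7 were highest in spleen, 3 in heart, 1 in liver and 1 in brain. The arrays differed in how weak a miRNA could be and still be called detected: the SD of the 361 empty spots was 4.91 density units in muscle, 5.9 in spleen, 13.1 in heart, 17.6 in brain and 58.5 in liver. A probe was called detected where at least 50% of its spots exceeded the local empty spots by more than 3 of these SD, with little spread within the spot.

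By this rule 16 of the 19 probes were detected in at least 1 tissue (71.9% of all probes), and dre-miR-10a-3p, dre-miR-10d-3p and dre-miR-196b were detected in none. In muscle 16 were detected (65% of all probes), in spleen 9 (50.2%), in brain 3 (55.8%), in heart 3 (52%) and in liver 0 (29.7%). Muscle was the highest of the tissues with detection for all 16, as for 28.9% of all probes detected anywhere. Several of the 16, among them ccr-miR-10d, pol-miR-10b-3p and dre-miR-196a, were detected in muscle alone, so for these no other tissue could be the highest. By Signal with or without detection, muscle was the highest for 11 of the 16 (22.6% of all probes detected anywhere) and liver for 5 (14.7%). With a robust SD of the empty spots, which a few bright empty spots do not raise, the numbers were 16 in muscle (62.7% of all probes), 9 in spleen (50.2%), 11 in brain (68.2%), 10 in heart (62.1%) and 3 in liver (43.3%). With 5 SD in place of 3, they were 15 in muscle (57.8% of all probes), 7 in spleen (46.6%), 1 in brain (49.5%), 1 in heart (49.5%) and 0 in liver (24.6%). The counts therefore depended on the detection limit, and muscle and spleen held the same counts with the robust SD but lower ones at 5 SD.

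**Figure D1:**
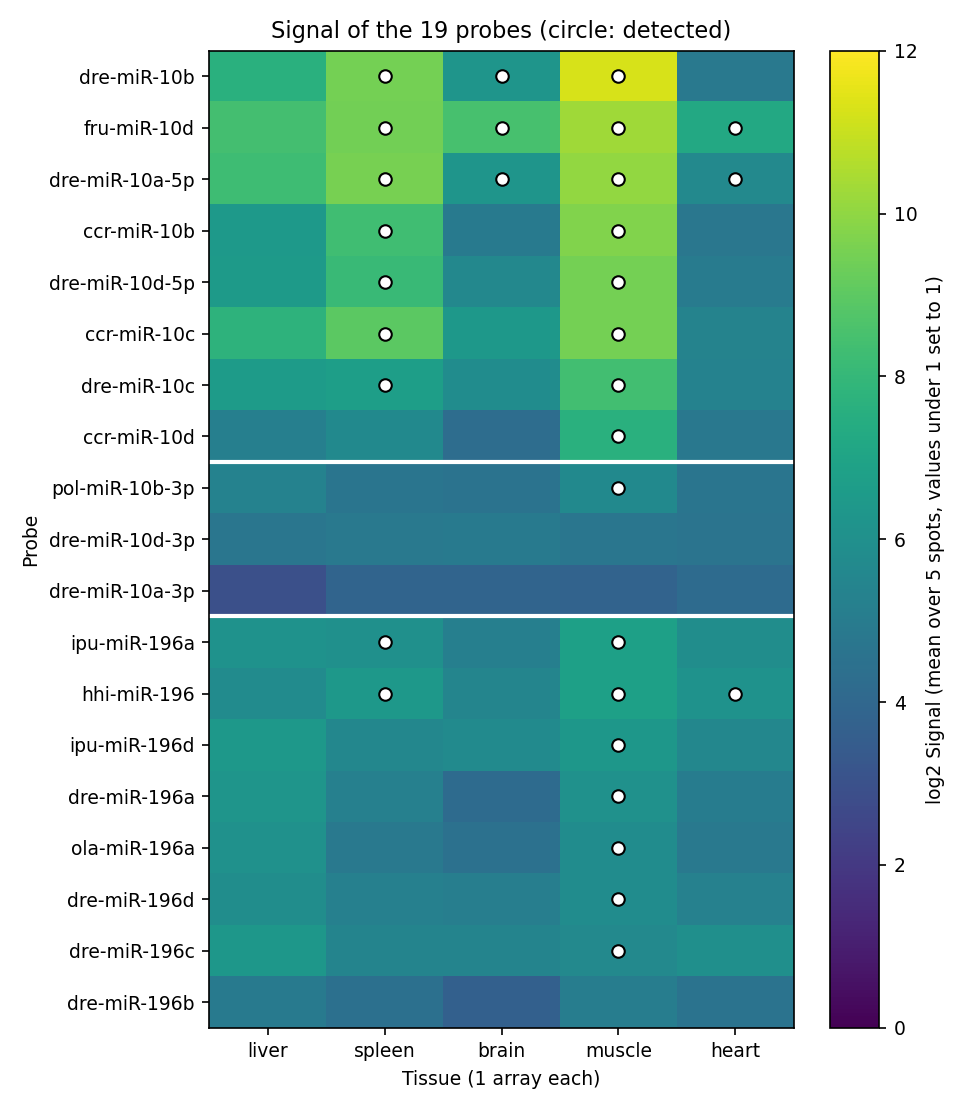
Mean Signal over 5 spots (color, log2 scale) of the 19 probes in rows and the 5 tissues in columns, with miR-10 5p, miR-10 3p and miR-196 separated by white lines. A circle marks a tissue in which the probe was detected. All 8 miR-10 5p probes have their highest Signal in muscle, and the column of muscle holds 16 circles, that of liver 0.

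In all, 6 of the miR-10 5p probes exceeded a Signal of 500 in at least 1 tissue, in all 6 cases in muscle, and no other of the 19 did, where 48.4% of all probes exceeded it. The probe dre-miR-10b covers the full zebrafish miR-10b. Its raw spot density had a median of 1232 in muscle (lowest 1033, highest 1338), 430.3 in spleen, 130.0 in brain, 126 in liver and 78.5 in heart. Its Signal was 2447 ± 257 in muscle, 729 ± 74.8 in spleen, 196.4 ± 92.3 in liver, 77.0 ± 13.8 in brain and 28.8 ± 8.12 in heart (SD, n = 5 spots). Muscle and spleen stood apart from the other tissues and from each other, with no overlap of spots. The Signal of dre-miR-10b in muscle was 3.36 ± 0.493 times that in spleen and 31.8 ± 6.61 times that in brain. Spleen was 9.46 ± 1.96 times brain. The probe was not detected in heart or liver, where only bounds can be given. Muscle was at least 49.4-fold higher than heart and at least 6.69-fold higher than liver. Over the other background and normalization settings, the lowest bounds were 22.5 for heart (no normalization between the arrays) and 4.71 for liver (plain background subtraction).

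The probe ccr-miR-10b lacks only the last g of dre-miR-10b. Its density had a median of 517 in muscle, 200.5 in spleen, 109 in liver, 93.9 in brain and 58.2 in heart. Its Signal was 844 ± 117 in muscle, 323 ± 37.4 in spleen, 88.0 ± 29.1 in liver, 29.7 ± 6.2 in brain and 26.6 ± 8.71 in heart. Only muscle and spleen were detected, again with separate spots, and brain and heart differed by less than the spread over spots. Muscle was 2.61 ± 0.471 times spleen, at least 14.5-fold higher than brain and at least 17-fold higher than heart, and spleen was at least 5.55-fold higher than brain.

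The probe dre-miR-10a-5p is the zebrafish miR-10a. Its density had a median of 564 in muscle, 427 in spleen, 185 in liver, 138 in brain and 97.5 in heart. Its Signal was 1057 ± 126 in muscle, 739.7 ± 150.2 in spleen, 305 ± 47.0 in liver, 76.4 ± 15.6 in brain and 49.6 ± 12.4 in heart. The spots of muscle and spleen overlapped here, as did those of brain and heart, while both muscle and spleen lay above liver, and liver above brain. Muscle was 1.43 ± 0.336 times spleen, 13.8 ± 3.27 times brain and 21.3 ± 5.9 times heart. Spleen was 9.68 ± 2.79 times brain. With no normalization between the arrays, muscle was 7.17 times brain and 7.57 times heart, and spleen was 5.3 times brain. With plain background subtraction the ratios were 18.2, 25.6 and 11.0, and under quantile normalization they were 15.3, 10.9 and 9.44.

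For ccr-miR-10c, with the single change A16G, the density had a median of 418 in muscle, 278 in spleen, 154 in liver, 121 in brain and 87.9 in heart. Its Signal was 722 ± 90.1 in muscle, 499.9 ± 34.7 in spleen, 216 ± 46.4 in liver, 83.6 ± 47.5 in brain and 41.9 ± 12.7 in heart. Muscle and spleen had separate spots, and 1 of the 5 brain spots, with a density of 219, stood apart from the others. Muscle was 1.44 ± 0.206 times spleen and at least 8.64-fold higher than brain, and spleen was at least 5.98-fold higher than brain. These bounds against brain became 4.42 and 2.95 with no normalization between the arrays, and 11.3 and 6.78 with plain background subtraction. The shorter dre-miR-10c reached 332 ± 70.8 in muscle, 107 ± 23.3 in spleen, 95.9 ± 109 in liver, 57.1 ± 43.6 in brain and 39.6 ± 8.63 in heart. It was detected in muscle and spleen, and muscle was 3.11 ± 0.95 times spleen.

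MiR-10d was covered by 3 probes of different length. The Signal of dre-miR-10d-5p was 723 ± 89.8 in muscle, 279.9 ± 32.5 in spleen, 93.0 ± 28.0 in liver, 49.1 ± 12.5 in brain and 31.7 ± 6.42 in heart. Its density had a median of 464 in muscle, 179 in spleen, 113 in brain, 104 in liver and 61.7 in heart. Detected in muscle and spleen only, it was 2.58 ± 0.44 times higher in muscle than in spleen, and muscle was at least 12.4-fold higher than brain. The shortest, ccr-miR-10d, was detected only in muscle, with a Signal of 198 ± 26.6 there and 19.8 to 51.2 in the other tissues. Muscle was at least 3.4-fold higher than brain, 3.53-fold higher than spleen and 3.99-fold higher than heart for it.

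The longest, fru-miR-10d, was the only miR-10 or miR-196 probe to pass the limit of 3 SD in brain with all 5 spots. In brain dre-miR-10a-5p and dre-miR-10b passed it with 3 spots each, and with the robust SD 11 of the 19 probes were detected there. The density of fru-miR-10d had a median of 640.0 in muscle, 439 in spleen, 385 in brain, 258 in heart and 198 in liver. Its Signal was 1250.5 ± 146 in muscle, 688 ± 46.2 in spleen, 369 ± 33.5 in brain, 337 ± 53.6 in liver and 152 ± 16.1 in heart. In Signal all 5 brain spots lay below the spleen spots and above the heart spots, and brain and liver overlapped. Muscle was 1.82 ± 0.245 times spleen but only 3.39 ± 0.501 times brain, against the bound of 12.4 for dre-miR-10d-5p, and spleen was 1.86 ± 0.21 times brain. The 2 probes differ only in the last bases ug of fru-miR-10d. With no normalization between the arrays, muscle was 1.74 times and spleen 1.13 times brain for fru-miR-10d. For dre-miR-10d-5p muscle was then at least 6.39-fold and spleen at least 2.07-fold higher than brain. For dre-miR-10b muscle was 17 times and spleen 5.26 times brain.

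**Figure D2:**
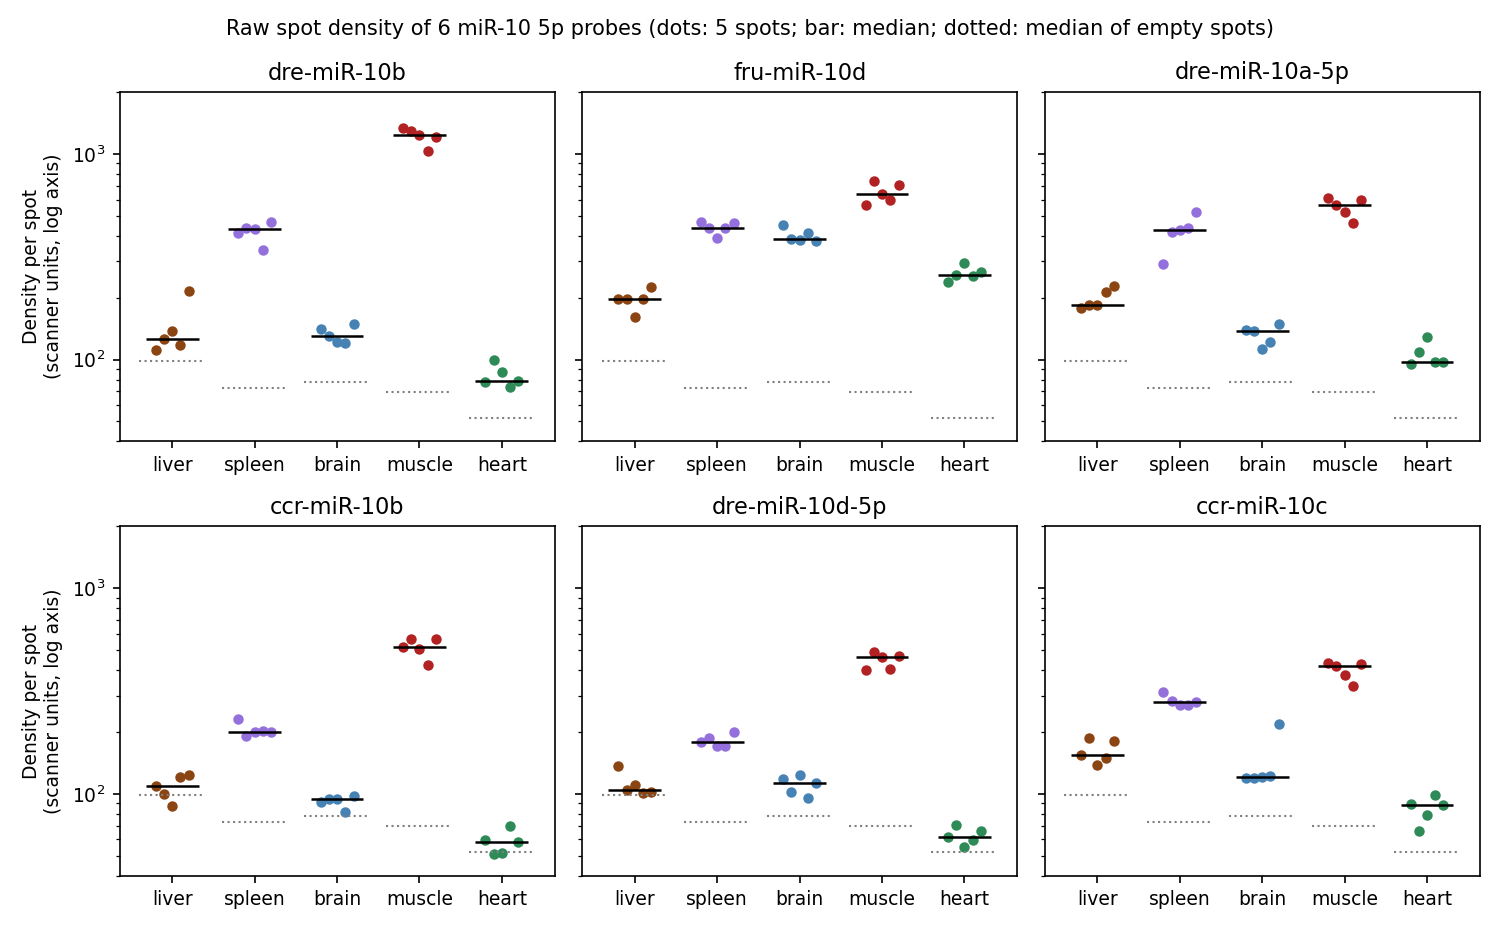
Raw density of each of the 5 spots (dots, scanner units, log axis) by tissue for the 6 miR-10 5p probes with a Signal above 500, with the median over spots (bar) and the median of the empty spots of that array (dotted). Muscle has the highest median in all 6, and only fru-miR-10d has brain spots near those of spleen, with medians of 385 and 439.

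Brain was compared with each trunk tissue over the probes detected in brain or in the other tissue. In spleen 5 of 9 were at least 2-fold higher than in brain (26% of all probes compared), all of them miR-10 5p. In muscle 8 of 16 were (24.4%), which were the 8 miR-10 5p probes. In heart 0 of 4 were (16.2%), and 1 of 4, fru-miR-10d, was at least 2-fold lower than in brain (30.4%), with brain 2.43 ± 0.34 times heart. No liver ratio was measured, since no probe of either family was detected in liver. The 3 ratios there are upper limits, which the rule could not call higher, so no count is given for liver.

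The median log2 ratio to brain was 2.27 in spleen (6 of 9 values are lower bounds), where that of all probes was -0.31, and 1.36 in muscle (13 of 16 are lower bounds), where that of all probes was -0.10. A probe detected in 1 tissue alone can enter such a count only through the tissue in which it is high. For hhi-miR-196 heart was at least 1.21-fold higher than brain. For dre-miR-10a-5p brain was 1.54 ± 0.498 times heart. For dre-miR-10b brain was at least 1.55-fold higher than heart, with a Signal of 77.0 against 28.8 and separate spots. Under quantile normalization heart was above brain for both miR-10 probes (61.1 against 43.8, and 47.2 against 43.8). Brain was the lowest tissue in Signal for 8 of the 16 detected probes (26.8% of all probes detected anywhere) and heart for 7 (28.9%). None of these 8 was detected in brain. Only for dre-miR-196a and ipu-miR-196a did brain lie below the next tissue by more than the spread over spots. Of the miR-10 5p probes, heart was the lowest for 7 and brain for 1.

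**Figure D3:**
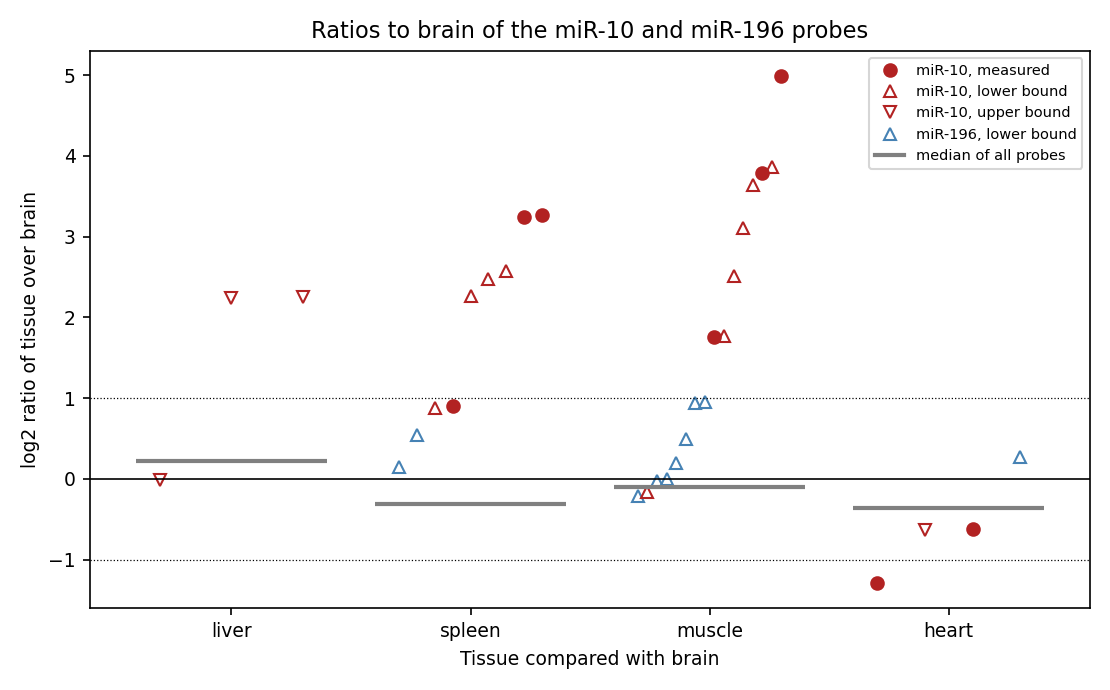
Log2 ratio of each trunk tissue over brain for the miR-10 (red) and miR-196 (blue) probes detected in at least 1 of the 2 tissues, with dotted lines at 2-fold and a grey bar at the median of all probes. Open triangles are bounds, pointing up where brain was not detected and down where the other tissue was not. The miR-10 points in spleen and muscle reach 3.27 and 4.99, and the miR-196 points stay below 1.

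MiRNAs of epithelium were high in muscle RNA as well. The 10 probes of miR-203 and miR-205, miRNAs of skin epithelium, had a summed Signal of 40077 in muscle against 270 to 1218 in the other tissues, and 9 of them were detected in muscle, 3 in spleen, 3 in brain, 0 in liver and 0 in heart. The 12 probes of miR-200, miR-141 and miR-429, miRNAs of other epithelia, had a summed Signal of 20393 in muscle, 26030 in liver, 6095 in heart, 3175 in spleen and 477 in brain. Of these, 12 were detected in muscle, 12 in heart, 11 in liver, 10 in spleen and 0 in brain. The part of these epithelia in the muscle level of miR-10 was not tested. In spleen all 7 probes of the pancreas miRNAs miR-216, miR-217 and miR-375 were detected, with a summed Signal of 9131 against 715 in brain, 182 in heart, 1565 in muscle and 23499 in liver, and their part in the spleen level was not tested either. Without the muscle array in the normalization and the comparison, a choice made after seeing the data, 6 of 9 probes were at least 2-fold higher in spleen than in brain (27.9% of all probes).

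The 3p arm, which is usually the strand that is degraded, was near the empty spots. The probe pol-miR-10b-3p had a Signal of 52.0 ± 12.6 in muscle, where it was detected with a density between 97.0 and 111, and of 39.3 ± 30.0 in liver, 25.1 ± 10.4 in spleen, 24.0 ± 10.6 in brain and 25.2 ± 6.32 in heart, where it was not. Muscle was at least 1.05-fold higher than heart, and for the other tissues the bound fell under 1, so that no ratio is given.

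MiR-196, whose genes lie among the posterior genes of the Hox clusters, was weak in all tissues. It was detected in muscle with 7 of 8 probes, in spleen with 2 (hhi-miR-196 and ipu-miR-196a), in heart with 1 (hhi-miR-196) and in brain and liver with 0. In muscle the Signal of the 7 ranged from 50.3 for dre-miR-196c to 113 for ipu-miR-196a, and none of the 8 reached 500 in any tissue. The probe hhi-miR-196 had the widest detection, with a Signal of 112 ± 10.8 in muscle, 84.7 ± 13.2 in spleen, 70.1 ± 6.72 in heart, 54.4 ± 17.2 in liver and 43.8 ± 10.1 in brain. Muscle was 1.32 ± 0.241 times spleen, 1.59 ± 0.216 times heart and at least 1.92-fold higher than brain. For ipu-miR-196a the Signal was 113 ± 23.3 in muscle, 69.8 ± 33.9 in liver, 64.3 ± 6.86 in spleen, 60.0 ± 9.4 in heart and 36.6 ± 7.39 in brain, and muscle was 1.76 ± 0.409 times spleen and at least 1.94-fold higher than brain.

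The other 5 miR-196 probes detected in muscle, namely dre-miR-196a, ola-miR-196a, dre-miR-196c, dre-miR-196d and ipu-miR-196d, had a higher mean Signal in liver than in muscle, but were not detected in liver. High liver spots raised this mean. For dre-miR-196a the liver spots had a median density of 106 and 1 spot of 284, and for dre-miR-196c a median of 105 and 1 spot of 315. For dre-miR-196d the median was 101, with spots of 204 and 151. By the median over spots, Signal was higher in muscle than in liver for these 5. No miR-196 probe was called at least 2-fold higher in a trunk tissue than in brain. None was detected in brain, so these ratios were lower bounds against a brain Signal of 58.2, which no trunk Signal exceeded 2-fold. With the robust SD, 5 miR-196 probes were detected in brain and 5 in heart. For the 5 detected in brain, muscle was then 1.19 to 3.09 times brain, with 3.09 for ipu-miR-196a and 2.55 for hhi-miR-196. For dre-miR-196a and ola-miR-196a, still without detection in brain, muscle was at least 2.31-fold and 2.01-fold higher.

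Detection in muscle and spleen but in neither brain nor heart, a pattern picked after the values were seen, was found for 5 of the 19 probes (ccr-miR-10b, ccr-miR-10c, dre-miR-10c, dre-miR-10d-5p and ipu-miR-196a) and for 2.87% of all probes. With the robust SD it was found for 1 of the 19, ccr-miR-10b, and for 0.754% of all probes.

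The miRNAs nearest to miR-10 in sequence had another distribution. MiR-99 and miR-100 are known as relatives of miR-10 and are made from transcripts that also carry let-7.
dre-miR-100: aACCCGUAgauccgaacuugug
Between 3 and 6 edits separate the miR-10 5p targets from the nearest miR-100 target. The Signal of dre-miR-100 was 14026 ± 419 in brain, 3981 ± 241 in heart, 3225 ± 268 in muscle, 1909 ± 918 in liver and 710.0 ± 74.4 in spleen, so that brain was the highest tissue and spleen the lowest. All 6 detected miR-99 and miR-100 probes were highest in brain and at least 2-fold lower in each of the 4 trunk tissues than in brain. The 5p arm of let-7 shares part of the seed of miR-196, shifted by a base. Of the 20 let-7 probes, which include some of the 3p arm without this seed, 18 were highest in brain. Brain, the highest tissue of the detected miR-99 and miR-100 probes, lay below muscle with all 5 spots for all 8 miR-10 5p probes (27.8% of all probes).

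The probes with a tissue profile most like that of dre-miR-10b, by the root mean square difference of log2 Signal centered over the 5 tissues and among 339 probes detected in at least 3 tissues, were dre-miR-206 (1.22), ola-miR-206 (1.25) and dre-miR-184 (1.42). Of the other miR-10 probes, those detected in at least 3 tissues were at 0.70 (dre-miR-10a-5p) and 1.31 (fru-miR-10d). The profile of hhi-miR-196, the miR-196 probe with detection in 3 tissues, was nearest to dre-miR-140-3p (0.24), ipu-miR-140 (0.25) and ccr-miR-140-3p (0.27). Values without detection enter these profiles, in liver and heart for dre-miR-10b and in liver and brain for hhi-miR-196. These are descriptions over 5 arrays.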

How the data were processed

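The data are 5 single-color (Cy3) arrays of liver, spleen, brain, muscle and heart, 1 per tissue. The label of the brain sample is spelled "Bain" in its title and was read as brain. The authors scanned the chips with a GenePix laser scanner and digitized them with Array-Pro. The deposited scanner tables hold, for each spot, the raw density (the median pixel intensity, linear scale) and the SD among its pixels, with nothing subtracted or normalized. The authors also deposited a table of background-subtracted, LOWESS-normalized intensities. Matched by name, its rows did not follow the scanner densities (Pearson's r on the log2 scale between 0.01 and 0.09), so its values were not used.

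Signal was computed with limma 3.58.1 in R 4.3.3: normexp background correction with an offset of 50, cyclic loess (3 iterations) over the 3315 probe spots on the log2 scale, the offset taken off, and the mean over 5 spots. For detection, 50% or more of the spots of a probe had to lie over 3 SD of the 361 empty spots above their local level (the median of 20 neighboring empty spots), with a pixel SD under 0.5 of the signal. Where the denominator tissue was without detection, the ratio is a lower bound: the denominator was the probe's own Signal or the weakest detected Signal of that array, whichever was higher (28.0 in muscle, 49.6 in heart, 56.1 in spleen, 58.2 in brain and 366 in liver). With neither tissue detected no ratio was formed. Errors of ratios combine the SD over spots. Every probe detected in at least 1 tissue is named, and full values are given for those with a Signal above 500 in at least 1 tissue. The probes and the comparison lists were chosen with earlier results of these data known.

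Counting and comparison used Python 3.11.15 with numpy 2.4.6 and pandas 2.3.3, and the steps were tested on simulated data. Alternatives were plain background subtraction, quantile or no normalization, the median over spots, other detection limits and folds, and, chosen after seeing the data, leaving out the muscle or the liver array. Precision is limited by the number of arrays. No genome was used, so no coordinates are given, and the sequencing and real-time PCR of the study were not analysed here.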

Additional observations from a re-analysis of the deposited data

How the results depend on the processing

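Muscle stayed the highest tissue for the 6 miR-10 probes with a Signal above 500 in all 24 checks (plain background subtraction, quantile normalization, no normalization, and the median over spots), at 1.35 to 4.75 times the next tissue. The number of probes called higher in muscle than in brain was 8 at 2-fold. It ranged from 6 (with 4-fold in place of 2-fold as the limit) to 12 (2-fold, robust SD). The number at least 2-fold higher in spleen reached 8 in place of 5 under quantile normalization. The 12 include hhi-miR-196, ipu-miR-196a, dre-miR-196a and ola-miR-196a. Brain was the lowest tissue for 8 probes, but for 5 under quantile normalization, 5 with the median over spots, 1 with no normalization and 4 without the muscle array, which also left 9 probes detected in place of 16. In liver 2 probes were called 2-fold higher than brain with the robust SD. The median log2 ratio to brain moved in muscle from 1.36 to 1.84 with plain subtraction and 0.53 with no normalization. In spleen it moved from 2.27 to 2.76 with plain subtraction, 1.05 with no normalization, 0.93 with the robust SD and 1.82 without the muscle array. In heart it was -0.63 and turned to 0.38 under quantile normalization and 0.14 without the muscle array, and was -1.28 (1 probe) with detection at 5 SD. In liver the median of upper limits, 2.25, became 3.22 with plain subtraction, 2.99 under quantile normalization, 1.52 with no normalization and -0.01 (1 probe) at 5 SD. With the robust SD the liver median was 0.96, which includes measured ratios. The robust SD also changed the probes compared, for spleen as well, since 3 were then detected in liver and 11 in brain, in place of 0 and 3. For ccr-miR-10b and dre-miR-10d-5p the bounds of muscle over brain, 14.5 and 12.4, became 7.57 and 6.39 with no normalization. With plain subtraction they became 25.3 and 23.8. The cause of these moves was not tested. No paired analysis was possible because each tissue had 1 array and no test was run. The spread of the empty spots limits liver most, where a Signal under 366 was not called detected.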

Other observations

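The letters GUGUGUG, a stretch chosen after the values of fru-miR-10d were seen, stand in 3 target sequences of the array (0.452% of all). These are fru-miR-10d, the only miR-10 probe with all 5 brain spots over the limit of 3 SD, and the probes of miR-206, a miRNA of skeletal muscle.
dre-miR-206: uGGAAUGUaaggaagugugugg
ola-miR-206: uGGAAUGUaaggaagugugug
The Signal of dre-miR-206 was 7066 ± 383 in muscle, 621 ± 49.7 in brain, 562 ± 155 in liver, 498 ± 20.5 in spleen and 159.7 ± 11.6 in heart. For ola-miR-206 it was 6608 ± 696 in muscle, 319 ± 35.6 in brain, 297 ± 25.4 in spleen, 249 ± 41.1 in liver and 112 ± 11.3 in heart. All 3 probes were thus detected in spleen, brain, muscle and heart, and brain was above heart in each. The same held for dre-miR-10a-5p, which lacks the stretch (76.4 in brain and 49.6 in heart). Under quantile normalization heart was above brain for dre-miR-10a-5p (61.1 against 43.8). Heart was the lowest tissue in Signal for 7 of the 8 miR-10 5p probes. Whether the shared letters have a part in the brain Signal of fru-miR-10d was not tested.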
